A study of Danio rerio with 6 samples.

Results

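Cathepsin K transcripts were unevenly spread over the cells sorted from injured zebrafish muscle, and the wells that held the most of them at 1 and 2 days post injury (dpi) are described here. The wells were chosen by their own level of CTSK (ENSDARG00000040251), the gene of cathepsin K. A well had to hold at least 1000 gene transcripts, with less than 0.2% of them from the granulocyte genes npsn (ENSDARG00000010423) and EPX (ENSDARG00000019521) together. It also had to hold at least 3 CTSK transcripts that made up at least 0.1% of its total. This left 167 wells, called CTSK-high here, of 710 non-granulocyte wells in the 3 libraries of 1 and 2 dpi; the 6 libraries of the series held 1659 wells with 1000 or more transcripts among 2304 wells. They were set against the 231 non-granulocyte wells of the same libraries with no CTSK transcript, called CTSK-0. The other 312 wells had CTSK below these limits and entered no test.

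The study asked how macrophages change while larval zebrafish muscle heals after a needle injury. The larvae were of the TL strain and transgenic for Tg(mpeg1:mCherry), a red fluorescent reporter under the mpeg1 promoter that marks macrophages, and all of them were raised with PTU, an inhibitor of pigmentation. The dorsal myotome was punctured at 4 days post fertilisation (dpf), the injured region was dissected later, and live mCherry-positive cells were sorted singly into 384-well plates for SORT-seq, a 3'-end method that counts molecules by their identifiers. The groups used were 1 dpi (5 dpf, replicates 1 and 2), 2 dpi (6 dpf, replicate 1), 3 dpi (7 dpf, replicates 1 and 2) and uninjured (4 dpf, replicate 2, from whole larvae rather than dissected muscle), with 1 plate per replicate. CTSK-high and CTSK-0 wells of a library therefore shared larvae, sort and plate. Whether replicate plates hold cells of different larvae is not stated in the labels. With the library as a block, the edgeR p-values cover only how the class difference varied between plates, which may be technical. The plates of the main test span 1 and 2 dpi, so that spread mixes plate and time. edgeR estimates it partly from all genes tested together, not from each gene alone.

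Cathepsin K is a cysteine protease of the papain family that works in the acid interior of the lysosome and, when secreted, in sealed acid pockets on bone. It cuts collagen and elastin, and it is best known from osteoclasts, the multinucleate bone-resorbing cells of the macrophage lineage. Macrophages clear debris after muscle injury by taking it up into vesicles that fuse with lysosomes, where proteases, lipid-handling proteins and a proton pump, the V-ATPase, digest and export the contents. The V-ATPase acidifies the vesicle, and the cathepsins need that acid to work.

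CTSK-high wells made up 23.9% of non-granulocyte wells in replicate 1 of 1 dpi (58 of 243, 95% exact binomial interval 18.7 to 29.7%). They made up 30.7% in replicate 2 (55 of 179, 24.1 to 38%) and 18.8% at 2 dpi (54 of 288, 14.4 to 23.7%). Under the same limits 5.88% of non-granulocyte wells qualified in the uninjured library (17 of 289, 3.46 to 9.25%), and 3.52% and 2.68% qualified at 3 dpi (7 of 199, 1.43 to 7.11%, and 6 of 224, 0.989 to 5.74%). These shares are the selection itself and were not tested, and the intervals cover counting error only. Since a limit on transcripts is easier to reach in deeper wells, the share with any CTSK transcript was also taken after each well was thinned to 1000 transcripts at random. It was 13.5% in the uninjured library, then 40.3% (replicate 1) and 38% (replicate 2) at 1 dpi, 29.9% at 2 dpi, and 7.54% (replicate 1) and 8.48% (replicate 2) at 3 dpi. The 3 libraries of 1 and 2 dpi lay above the others on both scales.

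**Figure D1:**
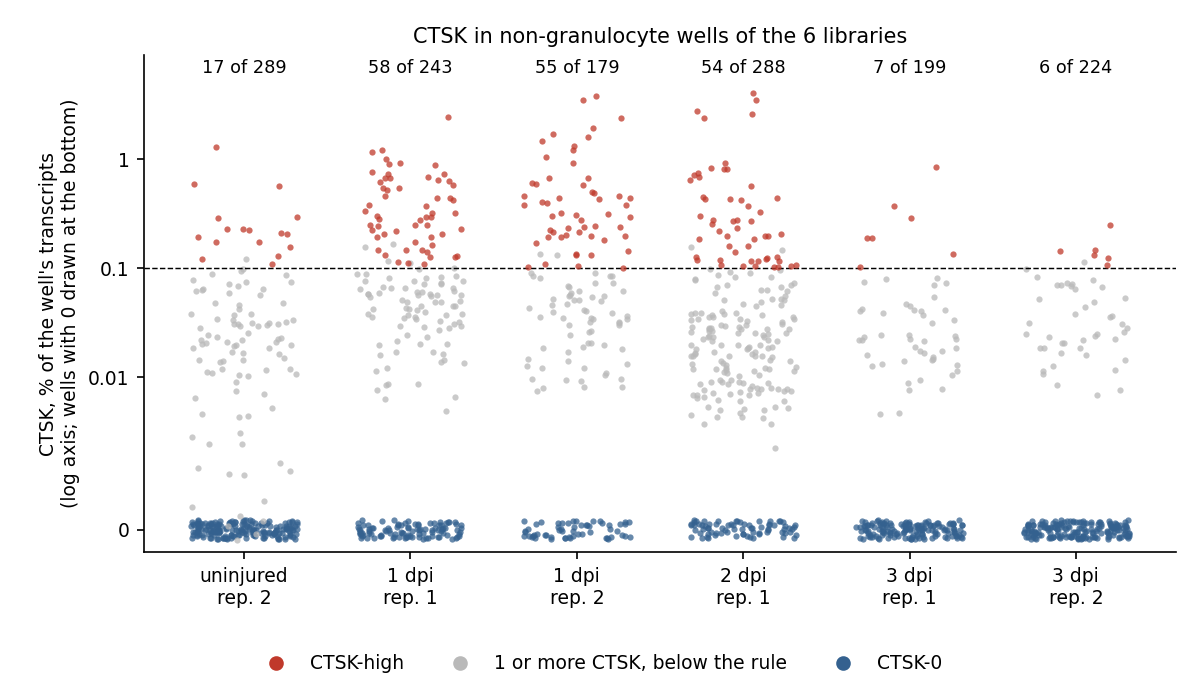
Each point is 1 non-granulocyte well; the height is the share of its transcripts that came from CTSK in percent, on a log axis with wells at 0 drawn at the bottom, and the columns are the 6 libraries from uninjured to 3 dpi. Red wells met the selection (58, 55 and 54 in the libraries of 1 and 2 dpi, 17, 7 and 6 in the others), blue wells had no CTSK, and the dashed line marks 0.1%; grey wells above it had fewer than 3 CTSK transcripts.

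Within the CTSK-high wells the level ran without a visible gap from the limit upward. The median share of CTSK was 0.311% and 0.322% at 1 dpi and 0.242% at 2 dpi, and the highest wells reached 2.42%, 3.82% and 4.09%. Of the 167 wells, 53 lay under 0.2%, 19 lay at 1% or more, and 7 held exactly 3 CTSK transcripts. The lowest members held 0.101% and 0.102%, and the wells nearest below the limit 0.0988% and 0.0970%; 125 other wells had 3 or more CTSK transcripts but less than 0.1%. The class is a range of a continuous level. The CTSK-high wells carried 84.7%, 92% and 85.1% of all CTSK transcripts of the wells with 1000 or more transcripts in replicate 1 and replicate 2 of 1 dpi and at 2 dpi. After thinning they averaged 4.53 and 5.75 CTSK transcripts per 1000 at 1 dpi and 5.94 at 2 dpi, levels that the selection itself sets. The granulocyte wells of the same plates averaged 0.0435, 0.0588 and 0.391. Non-granulocyte wells with CTSK below the limits averaged 0.605, 0.313 and 0.296, levels that the limits cap. At 2 dpi that was less than the granulocyte average, which rested on 25 transcripts drawn in 3.1% of the 64 granulocyte wells. CTSK was drawn in 25.2% of the 2 dpi wells below the limits. Of the 104 granulocyte wells 1 met the CTSK limits, at 2 dpi.

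Macrophage genes were present in these wells. A transcript of MPEG1, of the scavenger receptor gene marco or of MFAP4, all used as macrophage markers in zebrafish, was drawn in 84.4% of CTSK-high wells (141 of 167) and 77.5% of CTSK-0 wells (179 of 231), against 14.4% of granulocyte wells (15 of 104), all at 1000 transcripts. The 29 macrophage marker genes of the files summed to 10.8, 9.80 and 11.5 transcripts per 1000 in CTSK-high wells of replicate 1 and replicate 2 of 1 dpi and of 2 dpi, and to 9.18, 9.82 and 8.23 in CTSK-0 wells. Both classes thus carried macrophage markers, though not evenly at 2 dpi. There MPEG1, marco or MFAP4 was drawn in 81.5% of CTSK-high wells (44 of 54) and 64% of CTSK-0 wells (48 of 75). In replicates 1 and 2 of 1 dpi the shares were 87.9% and 83.6% of CTSK-high wells, against 85.9% and 80.7% of CTSK-0 wells. Of 15 tested marker genes 2 were called higher in CTSK-high wells by the test described below, a share near that over all genes tested (13%): cd68, a lysosomal glycoprotein of macrophages, and havcr1, whose mammalian TIM-family product binds phosphatidylserine on dying cells. MPEG1 (ENSDARG00000055290) did not pass, at 0.672, 0.455 and 0.667 transcripts per 1000 in CTSK-high wells and 0.465, 0.596 and 0.253 in CTSK-0 wells. Of the 15 log2 estimates 10 were positive. Negative ones that did not pass included spi1a (-0.85), cybb (-0.74) and MFAP4 ENSDARG00000090783 (-0.53). The other MFAP4 identifier tested, ENSDARG00000088745, was at 0.49 and did not pass either.

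Markers of most other cell types were scarce. Skeletal muscle, fibroblast, endothelial, erythrocyte, pigment cell, neural, lymphocyte and metaphocyte lists each summed to at most 0.667 transcripts per 1000 in the CTSK-high wells of any of the 3 libraries, and all 9 erythrocyte genes were at 0. In CTSK-0 wells the erythrocyte genes summed to 0.0101 and 0 at 1 dpi and to 2.68 at 2 dpi. Metaphocyte genes summed to 0.909, 0.0351 and 0.36 there, against 0.362, 0.164 and 0.148 in CTSK-high wells. The rest of these lists reached at most 0.737 in CTSK-0 wells (lymphocyte genes, replicate 2 of 1 dpi). The 18 neutrophil marker genes summed to 3.12, 3.04 and 3.04 in CTSK-high wells, against 3.31, 2.68 and 2.84 in CTSK-0 wells; of 6 tested, s100a10b was called higher and the oxidase gene NCF1 lower. Microglia marker genes, many of which other macrophages share, summed to 6.12, 6.49 and 10.3 in CTSK-high wells, against 3.53, 7.53 and 3.25 in CTSK-0 wells. Keratinocyte genes, 7 of 23 detected, summed to 1.36, 1.44 and 3.02 in CTSK-high wells, against 2.68, 0.72 and 1.73 in CTSK-0 wells. Nearly all of that was the intermediate filament gene krt8, which was higher in CTSK-high wells (log2 difference 0.81, SE 0.23). Its adjusted p was 0.00667 by edgeR's quasi-likelihood test with Benjamini-Hochberg adjustment, and 0.308 without replicate 2 of 1 dpi. The other keratinocyte gene tested, icn, was called lower (-2.18, SE 0.48, edgeR adjusted p = 0.000263). Wells with over 2% of transcripts from the keratinocyte, muscle, fibroblast, erythrocyte, pigment cell, neural and metaphocyte lists together were also left out. Over all genes tested this gave 185 called genes, against 180 with them. All 58, 55 and 54 CTSK-high wells stayed, with 94, 57 and 73 of the 99, 57 and 75 CTSK-0 wells, so the count could change little.

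The test summed thinned counts over the wells of each class in each library, which gave 6 sums, and compared the classes with the library as a block in edgeR's quasi-likelihood test; a gene was called at a Benjamini-Hochberg adjusted p under 0.05. CTSK, npsn and EPX were taken out. Of 838 genes tested, 109 were higher in CTSK-high wells, which is 13% of those tested, and 71 were lower, which is 8.47%. Other scaling factors (RLE) called 104 higher and 101 lower, and without replicate 2 of 1 dpi 55 were higher and 10 lower. Values below are transcripts per 1000 of a well, averaged over the wells of a class in a library, and differences are log2 estimates of CTSK-high over CTSK-0 with their standard error (SE). The SE was calculated back from each estimate and the F statistic of edgeR's quasi-likelihood test. A gene without any transcript in the CTSK-0 wells of a library could still stand at up to 0.0303, 0.0526 or 0.04 per 1000 in replicate 1 and replicate 2 of 1 dpi and at 2 dpi. These are shares of a fixed total, so a lower share does not say that a cell held fewer copies.

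Genes of other lysosomal cysteine proteases were higher along with CTSK. Of the 7 papain-family genes tested 6 were called higher and none lower, against the background of 13% and 8.47%, and their median difference was 1.15, against -0.000587 over all genes tested. The list they were taken from also holds legumain, a cysteine protease of another family; with it the count was 7 of 8 and the median 1.40. The gene ctsla, of a cathepsin L that digests protein in lysosomes, averaged 4 and 4.44 in the CTSK-high wells of 1 dpi and 2.87 in those of 2 dpi, against 1.07, 1.35 and 0.493 in CTSK-0 wells (1.97, SE 0.21, edgeR adjusted p = 2.80e-15). All 3 CTSK-high averages lay above all 3 CTSK-0 averages. LGMN, of legumain, the asparagine-cutting lysosomal protease that matures cathepsins, averaged 1.72, 1.38 and 1.72 in CTSK-high wells, against 0.515, 0.368 and 0.32 in CTSK-0 wells (1.95, SE 0.24, edgeR adjusted p = 1.31e-11). CTSZ, of the carboxypeptidase cathepsin Z, averaged 1.9, 2.29 and 1.52, against 0.808, 0.456 and 0.413 (1.71, SE 0.24, edgeR adjusted p = 1.60e-09). In both genes the class averages again did not overlap. The aminopeptidase gene CTSH (1.65), the cathepsin S gene ctss2.1 (1.15), the cathepsin B gene CTSB (0.91) and ctsl.1 (0.90) were also higher. The call of CTSB was lost without any 1 of the 3 libraries (edgeR adjusted p = 0.0827 to 0.181), and that of ctsl.1 without replicate 2 of 1 dpi (edgeR adjusted p = 0.184). The second cathepsin S copy, ctss2.2, stood at 0.534, 0.291 and 0.704 in CTSK-high wells, against 0.717, 0.298 and 0.707 in CTSK-0 wells (-0.23, SE 0.26, edgeR adjusted p = 0.571). Reads of such close copies may be shared between them. Of the other 5 list members in the files, ctslb and CTSO had no transcript in CTSK-high wells, and ctsf and ctss1 were too low to test; CTSK itself was not tested.

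**Figure D2:**
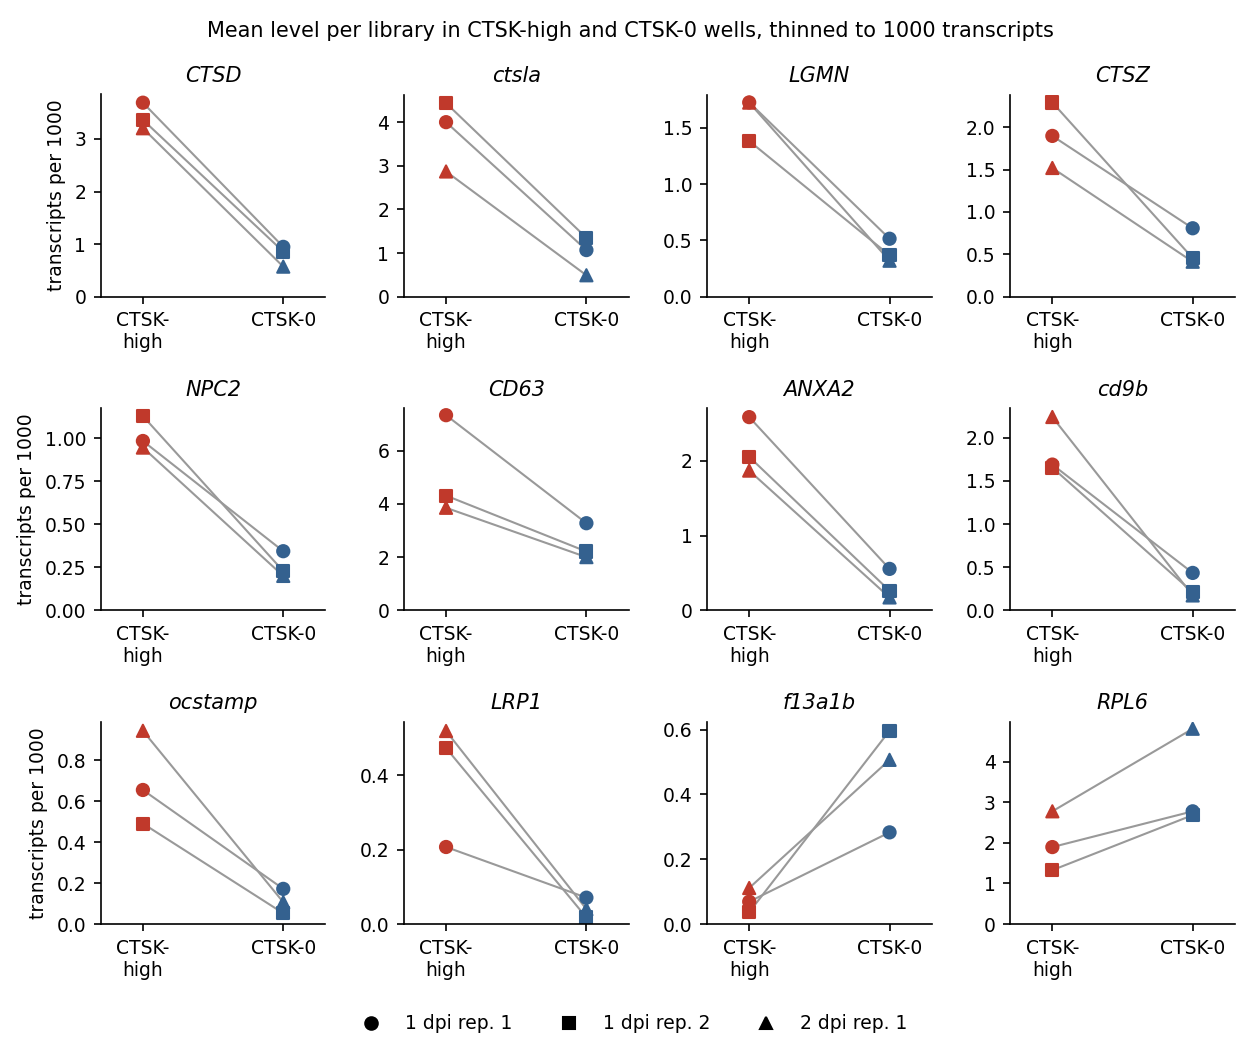
Each panel is 1 gene; points are mean transcripts per 1000 in CTSK-high wells (left, red) and CTSK-0 wells (right, blue) of 1 library, joined by a line, with the marker shape giving the library. For CTSD, ctsla, LGMN, CTSZ, NPC2, CD63, ANXA2, cd9b, ocstamp and LRP1 every CTSK-high point lies above every CTSK-0 point; f13a1b is lower in CTSK-high wells, and RPL6 is lower within each library.

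Lysosomal genes outside the papain family followed. CTSD, of the aspartic protease cathepsin D, averaged 3.69 and 3.36 in the CTSK-high wells of 1 dpi and 3.2 in those of 2 dpi, against 0.949, 0.86 and 0.573 in CTSK-0 wells (2.07, SE 0.22, edgeR adjusted p = 1.57e-15), with no overlap between the class averages. PSAP, whose product prosaposin is cut into the saposins that help break down sphingolipids, averaged 2.79, 2.16 and 4.11, against 1.38, 0.982 and 1.01 (1.34, SE 0.21, edgeR adjusted p = 1.32e-07). Of 7 lysosomal enzyme genes tested 4 were called higher, against 13% of all genes tested. Among them was the carboxypeptidase gene SCPEP1 (1.11), whose call was lost without replicate 1 of 1 dpi (edgeR adjusted p = 0.122) and without replicate 2 (edgeR adjusted p = 0.108). ASAH1, TPP1 and GUSB had differences of 0.55, 0.61 and 0.22 that did not pass.

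The list of lysosome membrane and proton pump genes, which also holds NPC2, of a soluble protein inside the lysosome, was tested at 17 genes. All 17 estimates were positive, 11 were called higher, against 13% of all genes tested, and the median was 0.81. NPC2, which hands cholesterol out of the lysosome, averaged 0.983, 1.13 and 0.944 in CTSK-high wells, against 0.343, 0.228 and 0.2 in CTSK-0 wells (1.90, SE 0.26, edgeR adjusted p = 4.92e-10). CD63, a tetraspanin of late endosomes, averaged 7.33, 4.31 and 3.85, against 3.27, 2.21 and 2 (0.97, SE 0.17, edgeR adjusted p = 1.20e-06). In neither gene did the class averages overlap. Among the V-ATPase genes the membrane-ring subunit ATP6V0C was higher by 0.69 (SE 0.16) and the stalk subunit ATP6V1G1 by 0.87 (SE 0.21), with ATP6V1F, ATP6V1D, atp6v1e1b, atp6ap1b, ATP6AP2 and 1 of 2 ATP6V1A identifiers also called. LAMP2, a heavily glycosylated membrane protein of the lysosome, was higher by 1.07. Without replicate 2 of 1 dpi, when 65 genes were called in all, 2 of 18 tested genes of the list were called, 12 had an unadjusted p under 0.05 and the median was 0.77. In wells with an MPEG1, marco or MFAP4 transcript, a limit chosen after seeing the data, 73 genes were called in all. Of this list 5 of 17 were called there (median 0.72). The other lysosomal enzymes gave 2 of 6 (0.75), and the protease list with legumain 6 of 8 (1.33). With no replicate block 28 genes were called in all. These lists then gave 1 of 17, 2 of 7 and 4 of 8 (medians 0.85, 1.05 and 1.35).

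**Figure D3:**
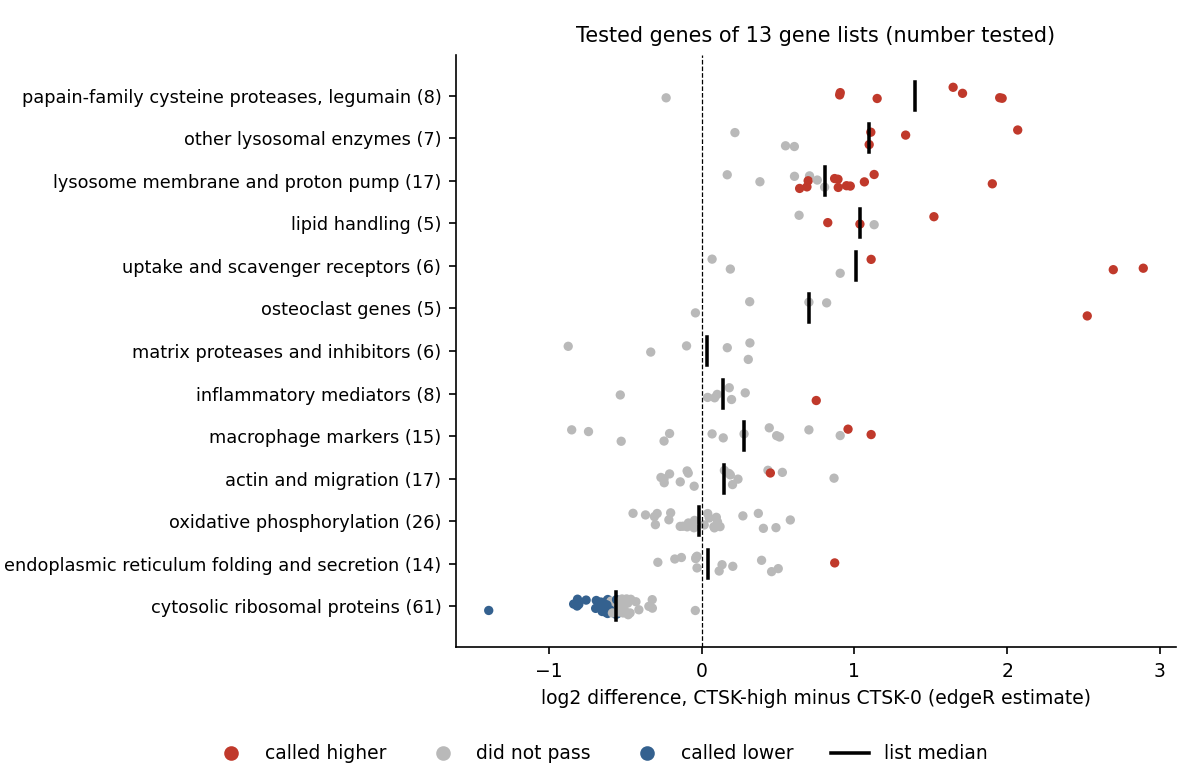
Each point is 1 tested gene of the list named at the left, placed by its log2 difference between CTSK-high and CTSK-0 wells; red and blue genes were called higher and lower, grey genes did not pass, and bars mark list medians. The 3 lysosomal lists, the first of which includes legumain, lie to the right (medians 1.40, 1.1 and 0.81), oxidative phosphorylation lies around 0 (-0.01), and cytosolic ribosomal proteins lie to the left (-0.56).

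Among the largest differences outside the lysosome were genes of membrane and surface proteins. ANXA2, of the calcium-dependent membrane binder annexin A2, averaged 2.59 and 2.05 in the CTSK-high wells of 1 dpi and 1.87 in those of 2 dpi, against 0.556, 0.263 and 0.173 in CTSK-0 wells (2.71, SE 0.26, edgeR adjusted p = 4.99e-18). When whole wells were summed without thinning it was not called (2.77, edgeR adjusted p = 0.117). Its binding partner s100a10b was higher too (1.43, SE 0.30). The tetraspanin gene cd9b averaged 1.69, 1.65 and 2.24 in CTSK-high wells, against 0.434, 0.211 and 0.173 in CTSK-0 wells (2.69, SE 0.26, edgeR adjusted p = 5.66e-17). In both genes the class averages did not overlap, while single wells did: ANXA2 was drawn in 62.1%, 63.6% and 61.1% of CTSK-high wells and in 30.3%, 15.8% and 10.7% of CTSK-0 wells. LRP1, a large endocytic receptor that takes up protease complexes, lipoproteins and debris, averaged 0.207, 0.473 and 0.519, against 0.0707, 0.0175 and 0.04 (2.89, SE 0.45, edgeR adjusted p = 7.70e-08). TMEM163, of a zinc transporter of vesicles, had the largest estimate (3.46, SE 0.70), from few transcripts: 0.362, 0.255 and 0.241, against 0.0505, 0.0175 and 0.

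The 15 largest higher differences also held 3 genes of solute carriers. SLC43A2 (ENSDARG00000061120), of an amino acid carrier, was higher by 2.28 (SE 0.31), SLC43A3, of a purine carrier, by 2.02 (SE 0.29), and SLC36A1, of a proton-coupled amino acid carrier of the lysosome, by 2.17 (SE 0.80). The chemokine receptor gene ccr12b.2 (2.90, SE 0.90), the glypican gene gpc1b (2.01, SE 0.54) and vcanb, of the matrix proteoglycan versican (2.00, SE 0.28), were higher as well. SLC36A1 and ccr12b.2 rested on 0.185 to 0.222 transcripts per 1000 in CTSK-high wells and were not called without replicate 2 of 1 dpi (edgeR adjusted p = 0.19 and 0.0813), nor was SLC36A1 without 2 dpi (edgeR adjusted p = 0.0576). The unnamed genes si:ch211-198c19.3, ENSDARG00000059295 and ENSDARG00000045980 were higher by 2.83, 2.35 and 2.09.

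**Figure D4:**
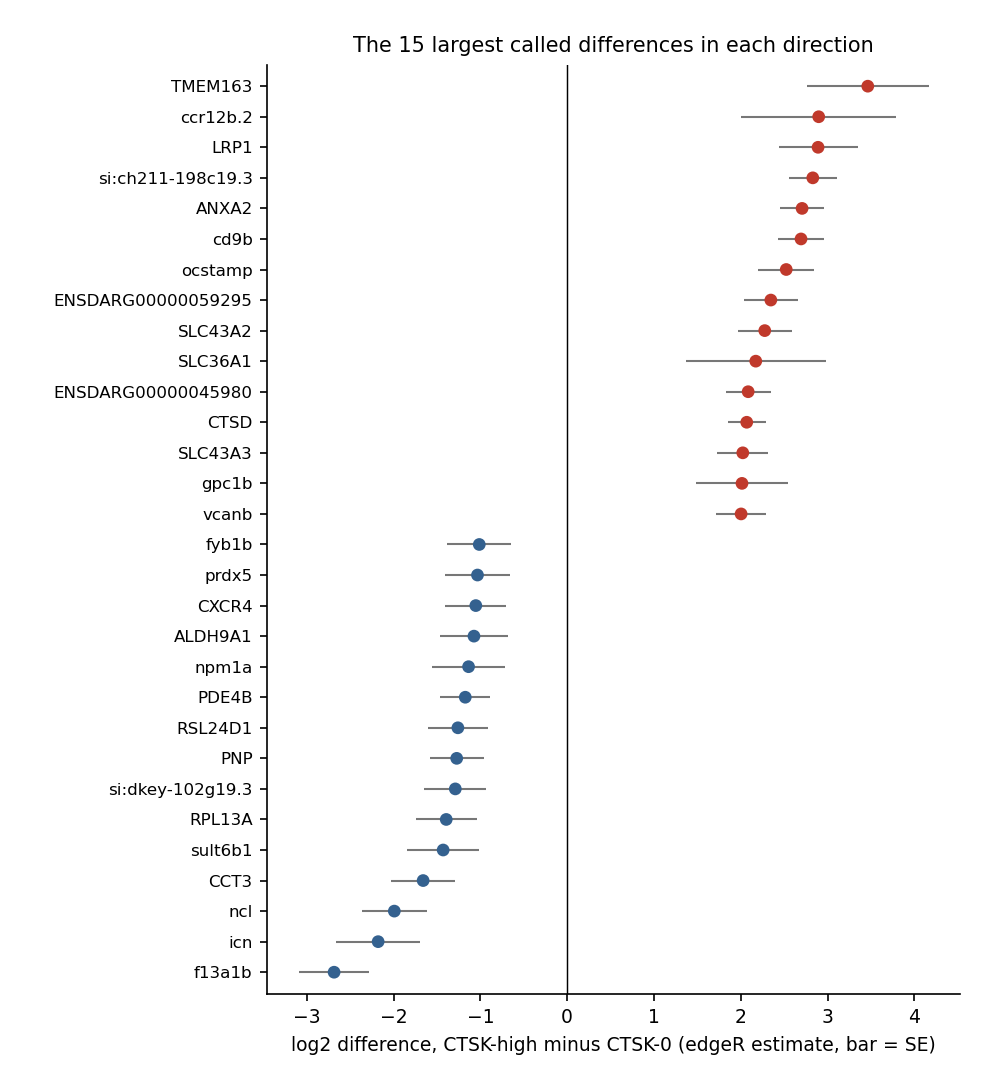
Points are edgeR's log2 differences between CTSK-high and CTSK-0 wells with their SE for the 15 largest called differences in each direction among genes of sufficient level with the same sign in all 3 libraries. Higher genes run from 2.00 (vcanb) to 3.46 (TMEM163), and lower genes reach -2.69 (f13a1b).

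Of 5 tested genes known from osteoclasts 1 was called higher, against 13% of all genes tested. It was ocstamp, of a membrane protein needed in mice for osteoclasts to fuse into multinucleate cells, which averaged 0.655 and 0.491 in the CTSK-high wells of 1 dpi and 0.944 in those of 2 dpi, against 0.172, 0.0526 and 0.107 in CTSK-0 wells (2.52, SE 0.32, edgeR adjusted p = 2.81e-11). It was drawn in 34.7% of CTSK-high wells (58 of 167), 6.93% of CTSK-0 wells (16 of 231) and 1.92% of granulocyte wells (2 of 104). Of the 5 osteoclast genes tested the others did not pass: the carbonic anhydrase gene ca2 (0.82; 1.41 and called without 2 dpi), the transcription factor genes SPI1 (0.70) and FOSL2 (-0.04), and the chloride exchanger gene CLCN7 (0.31). ACP5, of the tartrate-resistant acid phosphatase that stains osteoclasts, was too low to test, at 0.121, 0.455 and 0.0926 in CTSK-high wells and 0.0505, 0.0175 and 0.0267 in CTSK-0 wells. Transcripts of the pump subunit gene TCIRG1 and of NFATC1, a master regulator of osteoclast formation in mammals, were not drawn in any CTSK-high well.

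Uptake and lipid genes were mixed. Of 6 tested genes of the list of uptake and scavenger receptors, which are not all receptor genes, 3 were called higher, against 13% of all genes tested. They were LRP1, the tetraspanin gene cd9b and havcr1 (1.11, SE 0.29). For marco the levels were 0.31, 0.509 and 0.759 in CTSK-high wells, against 0.455, 0.193 and 0.133 in CTSK-0 wells (0.91, SE 0.40, edgeR adjusted p = 0.109). Without replicate 1 of 1 dpi marco was called, at 1.87. The call of havcr1 was lost without replicate 1 of 1 dpi (edgeR adjusted p = 0.081). Of 5 lipid genes 3 were called higher, against 13% of all genes tested. They were PLIN2, which coats lipid droplets (1.52, SE 0.30), and the cholesterol exporter genes ABCA1 (1.04, SE 0.29) and abca1b (0.83, SE 0.28). Without replicate 2 of 1 dpi neither exporter gene was called (edgeR adjusted p = 0.0681 and 0.364), nor was abca1b without 2 dpi (edgeR adjusted p = 0.204). The apolipoprotein gene apoeb was detected in 40.1% of CTSK-high wells and 15.6% of CTSK-0 wells, but the libraries differed in its mean level: it was 1.43, 2.15 and 4.46 in CTSK-high wells and 0.677, 2.51 and 0.613 in CTSK-0 wells (1.13, SE 0.74, edgeR adjusted p = 0.397). Without replicate 2 of 1 dpi apoeb was called, at 1.90 (edgeR adjusted p = 3.93e-05). Among galectins lgals9l1 (1.60) and lgals2a (0.79) were called higher, lgals2a not without replicate 2 of 1 dpi or without 2 dpi (edgeR adjusted p = 0.0897 and 0.132).

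Several programmes often used to describe wound macrophages gave few calls. Few of their genes could be tested, so these counts do not show that the classes were alike. Of 8 tested inflammatory mediators 1 passed, a share near the 13% called higher over all genes tested. It was the cytokine gene m17 (0.75, SE 0.26), which was not called without replicate 2 of 1 dpi (edgeR adjusted p = 0.397) or without 2 dpi (edgeR adjusted p = 0.219). Of 6 matrix proteases and inhibitors 0 passed in edgeR, and 1 had an unadjusted p under 0.05; DESeq2 gave none of the 6 an adjusted p and 0 an unadjusted p under 0.05. The collagenase gene mmp13a stood at 0.259, 0.0364 and 0.13 in CTSK-high wells, against 0.444, 0.0877 and 0.227 in CTSK-0 wells (-0.87, SE 0.39, edgeR adjusted p = 0.0891), and MMP9 at 0.155, 0.309 and 0.278, against 0.384, 0.316 and 0.187 (-0.33, SE 0.34, edgeR adjusted p = 0.522). In granulocyte wells mmp13a stood at 11.5, 18.8 and 7.55 per 1000, above both classes. The cytokine gene tnfa was too low to test and was drawn in 7.19% of CTSK-high wells (12 of 167, exact interval 3.77 to 12.2%), 5.19% of CTSK-0 wells (12 of 231, 2.71 to 8.90%) and 0.962% of granulocyte wells (1 of 104). The antigen-presentation gene cd74a was drawn in 5.99% and 6.06% of CTSK-high and CTSK-0 wells, and in none of 104 granulocyte wells, which allows a share of up to 3.48% by the exact interval.

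Ribosomal protein genes were the main group on the lower side. Of 61 tested, all 61 estimates were negative, 31 were called lower, against 8.47% over all genes, and none higher, with a median of -0.56 (-0.61 with RLE factors and -0.50 with library size alone). Summed over the 63 genes of the files, they gave 95.8, 79.2 and 75.1 transcripts per 1000 in CTSK-high wells, against 123, 113 and 122 in CTSK-0 wells. The 3 CTSK-high sums all lay below the 3 CTSK-0 sums, by 36.1 on average (SD 9.70, n = 3 libraries, exact two-sided sign-flip permutation p = 0.25, the smallest that 3 libraries can give). Wells of the uninjured and 3 dpi libraries were classed by the same CTSK limits. The sum was 104 in CTSK-high wells of the uninjured library, against 98.4 in its CTSK-0 wells, the other way round. At 3 dpi the sums were 105 and 88 in CTSK-high wells, against 165 and 112 in CTSK-0 wells. RPL6, a large-subunit protein, averaged 1.90, 1.33 and 2.78, against 2.78, 2.68 and 4.81 (-0.84, SE 0.19, edgeR adjusted p = 0.000338), lower within each library although the ranges overlap. Without replicate 2 of 1 dpi edgeR called 0 of 61, with 18 at an unadjusted p under 0.05 and a median of -0.59, and without 2 dpi it called 9 of 62. DESeq2 called 12 of the 58 to which it gave an adjusted p on all 3 libraries. In wells with an MPEG1, marco or MFAP4 transcript, a limit chosen after seeing the data, edgeR called 6 of 61 lower (median -0.44). With no replicate block it called 0 of 61 (median -0.57), and with wells thinned to 2000 transcripts 52 of 62 (median -0.64). Among the 15 largest lower differences were also ncl, of the nucleolar protein nucleolin (-1.99, SE 0.38), RSL24D1, of a ribosome assembly factor (-1.26, SE 0.35), and npm1a, of the nucleolar protein nucleophosmin (-1.14, SE 0.42); they belong to no list tested here. RSL24D1 was not called without 2 dpi (edgeR adjusted p = 0.096), nor npm1a without any 1 of the 3 libraries (edgeR adjusted p = 0.0592 to 0.223).

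The largest lower difference among the genes named here was that of f13a1b, of the coagulation factor XIII A chain, a transglutaminase that macrophages make. It averaged 0.069 and 0.0364 in the CTSK-high wells of 1 dpi and 0.111 in those of 2 dpi, against 0.283, 0.596 and 0.507 in CTSK-0 wells (-2.69, SE 0.41, edgeR adjusted p = 1.90e-08), with no overlap between the class averages. DESeq2 gave f13a1b an unadjusted p of 4.52e-05 and no adjusted p; it gave none for 14 of the 15 largest lower differences and 5 of the 15 largest higher ones, and it called the other 10 higher ones. The epidermal calcium-binding protein gene icn was lower by 2.18 (SE 0.48) and the chaperonin subunit gene CCT3 by 1.66 (SE 0.37). CXCR4, the receptor that holds blood cells in tissues rich in its ligand, was lower (-1.05, SE 0.35), as were the cAMP phosphodiesterase gene PDE4B (-1.17, SE 0.29) and NCF1, of the oxidase subunit p47phox (-0.92, SE 0.24). The call of CXCR4 was lost without any 1 of the 3 libraries (edgeR adjusted p = 0.0706 to 0.149), and those of PDE4B and NCF1 without replicate 2 of 1 dpi (edgeR adjusted p = 0.0555 and 0.0723); PDE4B had an adjusted p of 0.0504 in DESeq2. Of 26 oxidative phosphorylation genes 0 passed in edgeR, against 180 of all 838 genes tested. Of the 26, 0 had an unadjusted p under 0.05, against 302 of 838, and their median was -0.01. DESeq2 called 0 of the 13 to which it gave an adjusted p.

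Many of these genes stepped with the amount of CTSK, also among the wells chosen. The CTSK-high wells were divided at the median CTSK share of their library. Averaged over the 3 libraries, ANXA2 stood at 0.331 per 1000 in CTSK-0 wells, 0.740 in wells below the limits, 1.29 in CTSK-high wells under the median and 3.05 in those above it. For cd9b the 4 averages in the same order of rising CTSK were 0.273, 0.545, 1.17 and 2.55. The protease genes ctsla (0.972, 1.87, 2.77 and 4.76) and CTSD (0.794, 1.5, 2.86 and 3.98) had the same order. Others did not: NPC2 stood at 1.09 under and 0.949 above the median, ocstamp at 0.725 and 0.669, ctss2.1 at 3.70 and 3.27 and ctsl.1 at 1.76 and 0.910. The division used the same CTSK values as the class, so these levels are descriptions without a test.

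**Figure D5:**
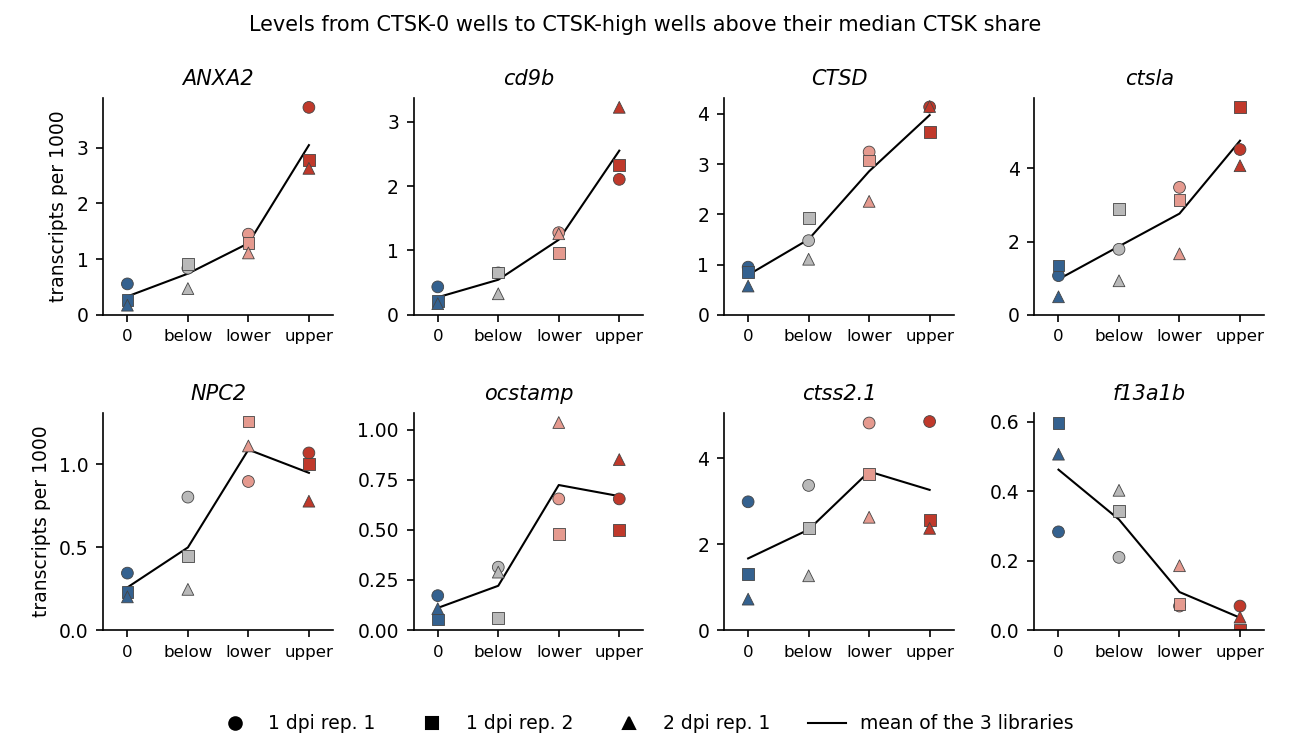
Each panel gives 1 gene in transcripts per 1000 at 4 steps of CTSK: CTSK-0 wells, wells with CTSK below the limits, and CTSK-high wells under (lower) and above (upper) the median CTSK share of their library; marker shapes are the 3 libraries and the line joins their means. ANXA2 and cd9b stand highest above the median (3.05 and 2.55), whereas NPC2, ocstamp and ctss2.1 do not, and f13a1b is lowest there (0.0353).

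Individual wells held differing parts of this pattern. Of the 15 genes with the largest higher differences, a CTSK-high well showed a median of 6 after thinning (range 0 to 13), a CTSK-0 well a median of 2 (0 to 13), and a well with CTSK below the limits a median of 3 (0 to 12). At least 3 were drawn in 91% of CTSK-high wells, 28.6% of CTSK-0 wells and 50.6% of the wells between. The genes were picked for this difference, so the counts describe its spread over wells and nothing more. CTSK-0 wells are also not free of it: 66 of 231 had 3 or more.

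Further readouts differed in how evenly they ran over the libraries. CTSK-high wells showed 510 and 560 genes at 1 dpi and 549 at 2 dpi per 1000 transcripts, against 496, 548 and 518 in CTSK-0 wells, higher in 3 of 3 libraries by 19.3 on average (SD 10.2, exact sign-flip permutation p = 0.25). A transcript of the sorting marker mCherry was drawn in 10.3%, 1.82% and 11% of CTSK-high wells, against 7.07%, 1.75% and 5.33% of CTSK-0 wells (mean difference 3.04 percentage points, exact sign-flip permutation p = 0.25). In replicate 2 of 1 dpi that was 1 well of each class, and in whole wells the shares were 27.6%, 41.8% and 44.4% of CTSK-high wells, against 29.3%, 28.1% and 33.3% of CTSK-0 wells, higher in 2 of 3 libraries. A transcript of any of 34 cell cycle genes was drawn in 55.2%, 38.2% and 70.4% of CTSK-high wells, against 74.7%, 77.2% and 57.3% of CTSK-0 wells. After thinning it was thus less frequent in CTSK-high wells of both replicates of 1 dpi and more frequent at 2 dpi (mean difference -15.2 percentage points, SD 26.3, exact sign-flip permutation p = 0.5). In whole wells the shares were 91.4%, 89.1% and 94.4% of CTSK-high wells, against 90.9%, 96.5% and 92% of CTSK-0 wells, higher in 2 of 3 libraries. A transcript of 6 mitotic genes was drawn in 5.17%, 3.64% and 5.56% of CTSK-high wells, against 7.07%, 22.8% and 2.67% of CTSK-0 wells. In replicate 2 of 1 dpi the exact intervals were 0.443 to 12.5% in CTSK-high wells and 12.7 to 35.8% in CTSK-0 wells. They cover only counting error among the wells of 1 plate, and the class difference was not tested. The order was turned round at 2 dpi. Median totals before thinning were 3775, 8716 and 11111 transcripts in CTSK-high wells and 2838, 7279 and 10892 in CTSK-0 wells. With CTSK-0 wells matched to CTSK-high wells by total, 154 genes were called, among them 147 of 179 that could be tested again. In replicate 2 of 1 dpi the matching kept 55 of 57 CTSK-0 wells, so it could change little there.

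The same comparison was made in the 3 libraries outside 1 and 2 dpi, uninjured and 3 dpi, with 30 CTSK-high wells in all. The wells there were classed by the same CTSK limits, and the comparison was added after the data were seen. Of 1028 genes tested 34 were called higher, which is 3.31%, and 13 were called lower. Of the 109 genes higher at 1 and 2 dpi 89 could be tested there, 75 had positive estimates, 19 were called higher and 0 lower, while 39.4% of all 736 genes tested in both had positive estimates. Of the 71 lower genes 68 were negative there and 2 were called lower. Over all 736 genes tested in both, 446 were negative there and 5 were called lower. Protease genes were among those called: CTSZ averaged 1.82 in CTSK-high wells of the uninjured library and 2.14 and 3.17 in those of 3 dpi, against 0.378, 0.386 and 0.434 in the CTSK-0 wells of the same libraries (2.17, SE 0.38, edgeR adjusted p = 5.27e-06). Likewise ctsl.1 averaged 3.24, 4 and 12.3, against 0.756, 0.407 and 0.629 (2.88, SE 0.35, edgeR adjusted p = 1.57e-13), from 6 to 17 CTSK-high wells a library. CTSD, CTSH, LGMN, ctsla and ocstamp were called there too.

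For ANXA2 the estimate was smaller in these libraries, and the difference between the sets was not tested. In the uninjured library and at 3 dpi it averaged 0.176, 0.429 and 0 in CTSK-high wells and 0.0833, 0.29 and 0.154 in CTSK-0 wells (0.07, SE 0.80, edgeR adjusted p = 0.983). The genes apoc1 (-2.10, SE 0.45) and grna.2 (-3.47, SE 0.61), marker genes of microglia-like and metaphocyte-like cells, were lower in the CTSK-high wells there. At 1 and 2 dpi apoc1 stood at 2.17, 2.27 and 3.06 in CTSK-high wells, against 1.16, 3.23 and 0.893 in CTSK-0 wells, and did not pass (0.64, SE 0.39, edgeR adjusted p = 0.298). Without replicate 2 of 1 dpi apoc1 was called higher, at 1.25 (edgeR adjusted p = 0.0114). At 1 and 2 dpi grna.2 stood at 0.259, 0.109 and 0.0926 in CTSK-high wells, against 0.737, 0.0175 and 0.24 in CTSK-0 wells, and was called lower (-1.05, SE 0.39, edgeR adjusted p = 0.0412; 0.146 without 2 dpi) although replicate 2 of 1 dpi ran the other way. It was drawn in 11.4% of CTSK-high wells (19 of 167) and 5.19% of CTSK-0 wells (12 of 231).

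Library depth bears on all of these values. The 6 libraries held 1380228 to 8355855 transcripts, with 1.19% to 16.1% spike-ins set aside, and the CTSK-high wells of the 3 main libraries held 290539, 504495 and 721302. Both replicates of 1 dpi differed beyond counting noise in their CTSK-high sums (chi-square per degree of freedom 3.16), so neither is a copy of the other. All 384 well names recur in each library; they are plate positions and do not mark shared cells. The 1 library of 2 dpi has no replicate, so no difference between 1 and 2 dpi was tested.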

How the data were processed

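The authors deposited expected counts, that is, estimated transcript numbers per gene and well; larger values lie slightly above whole numbers, as a correction for colliding molecular identifiers gives. BWA and build Zv9 come from the submitters' processing notes, with no version or role. Which counter and annotation were used is not given in the sources used here. Symbols came from a table of Ensembl identifiers that matched 19001 of 25130 (75.6%). Counts were rounded. Spike-ins were left out. No doublet caller was run, since each well received a sorted event.

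Wells were classed on whole counts, thinned to 1000 transcripts at random and summed per library and class, because cells are not replicates. The 6 sums of 1 and 2 dpi were tested in edgeR 4.0.16 (R 4.3.3; TMM, filterByExpr by class, robust quasi-likelihood, the library as a block because both sums come from the same plate). The block leaves 2 residual degrees of freedom. On simulated data with these totals, 65 of 95 genes changed by 1 on the log2 scale and 97 of 97 changed by 2 were recovered, with 2 false calls. The simulation gave every gene the same dispersion and the same class difference in each library. It therefore does not give the rate of false calls in the real data. Named genes were, per direction, the 15 largest called differences at an average log2 CPM of at least 7 with the same sign in each library, up to 4 called genes of each of 32 lists, and fixed sets (papain-family proteases with legumain, osteoclast genes, tnfa, mmp13a, MMP9, marco, MFAP4, MPEG1, cd74a, cd74b, apoeb, apoc1). The members, lists and rule were chosen with earlier results of these data known. DESeq2 1.42.0 was run on the same sums as an alternative; the other alternatives are given below. The values of 1 called gene are withheld and not reported here.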

Additional observations from a re-analysis of the deposited data

Results flagged for a closer look

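In 3 named genes the CTSK-high minus CTSK-0 difference had one sign in both libraries of 1 dpi and the other at 2 dpi; these opposite directions were not tested, and 2 dpi has a single library. The carbonic anhydrase gene ca2 differed by 0.354 and 0.191 transcripts per 1000 at 1 dpi and by -0.0733 at 2 dpi. For MMP9 the differences were -0.229 and -0.0067 at 1 dpi and 0.0911 at 2 dpi, and for MFAP4 (ENSDARG00000090783) they were -0.587 and -0.761 at 1 dpi and 0.223 at 2 dpi. None of the 3 genes was called over the 3 libraries together. Without 2 dpi, ca2 and this MFAP4 copy were called. The other tested MFAP4 identifier, ENSDARG00000088745, had a log2 estimate of 0.49 over the 3 libraries (SE 0.24, edgeR adjusted p = 0.116). That of ENSDARG00000090783 was -0.53 (SE 0.24, edgeR adjusted p = 0.0882). Shares of wells with a transcript, after thinning, had the same kind of turn, again not tested. For any of the cell cycle genes the CTSK-high minus CTSK-0 difference was -19.6 and -39 percentage points at 1 dpi and 13 at 2 dpi, and for the 6 mitotic genes it was -1.9 and -19.2 at 1 dpi and 2.89 at 2 dpi. For MFAP4 it was -7.09 and -1.21 at 1 dpi and 5.41 at 2 dpi, and for cd74a 1.13 and 0.0638 at 1 dpi and -0.889 at 2 dpi. In whole wells the cell cycle share of replicate 1 of 1 dpi ran the other way, at 91.4% of CTSK-high wells and 90.9% of CTSK-0 wells.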

How the results depend on the processing

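The count of 180 called genes was 57 with DESeq2 (which gave no adjusted p for 487 of 838), 116 with no filter on low counts, 856 without thinning, 350 with wells thinned to 2000, 73 in wells with an MPEG1, marco or MFAP4 transcript (chosen after seeing the data) and 47 in the 3 libraries of 3 dpi and uninjured alone (also chosen after seeing the data). Leaving out 1 library at a time gave 65 to 160, the lowest without replicate 2 of 1 dpi. With no replicate block it was 28; the block rests on both sums of a library sharing larvae, sort and plate. The other 12 alternatives gave 137 to 205. Among them, leaving out wells over 50000 transcripts removed no well from either class, so it repeated the main fit. None of the called genes that could be tested again changed sign except in the 3 libraries of 3 dpi and uninjured, where 143 of 160 kept it. Of the genes named by rule, 7 called at 1 and 2 dpi were reversed there: fyb1b (0.20), PLIN2 (-0.14), m17 (-0.35), CANX (-0.27), actb1 (-0.37), lgals2a (-0.026) and krt8 (-0.17), none of them called there. The apoc1 estimate, positive and not called at 1 and 2 dpi, was -2.10 and called there. The share of CTSK-high wells under limits of 5 transcripts and 0.2% was 3.46% in the uninjured library, 16% in replicate 1 and 22.3% in replicate 2 of 1 dpi, 10.4% in the 2 dpi library, and 1.01% and 0.446% in replicates 1 and 2 of 3 dpi. With any CTSK transcript after thinning it was 13.5% in the uninjured library, 40.3% in replicate 1 of 1 dpi, 29.9% in the 2 dpi library, and 7.54% and 8.48% in replicates 1 and 2 of 3 dpi. The cause of these shifts was not tested.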
